A study of Mesocentrotus franciscanus with 18 samples.

Results

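The 60 most abundant transcript groupings of the red sea urchin Mesocentrotus franciscanus are described here, as their level in muscle, esophagus and nerve and in Small and Large animals. A grouping is a set of assembled transcripts that the assembler Trinity treated as 1 gene, and the members were chosen by level alone, as the 60 of 127198 groupings with the highest mean CPM (counts divided by the library's total count and multiplied by 1000000) over all 18 libraries. Mean CPM was 1470 for the member ranked 60 and 1464 for the grouping ranked 61, so the limit fell between neighbours of nearly equal level. CPM is not divided by transcript length, so the ranks order counts and not molecules.

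RNA-Seq was made on 3 tissues of wild-caught urchins, namely the muscle of Aristotle's lantern (ALM), the radial nerve (RN) and the esophagus (ES), each from Small (S) and from Large (L) animals. The 6 groups are written as the tissue followed by the size, so that RN-L stands for radial nerve of Large urchins. Each group had 3 libraries, from the sampling years 2010, 2011 and 2013, and each library was made from RNA pooled over several animals of 1 tissue, size and year, with no other treatment. The study took size as a stand-in for age and asked how expression differed between young and old animals in each tissue. A group's spread is therefore between pools and years, and not between animals.

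Total counts ran from 7383210 to 11547218 per library. By the names of the libraries, all ALM and ES libraries and RN-S 2013 belong to 1 series (OtA08), RN-S 2010 and RN-S 2011 to another (Ot76) and all RN-L libraries to OtA28, so in RN size and library series cannot be told apart. The names of the RN-L libraries, and of no others, also end in R, and the labels do not say what it stands for. The pools ALM-L 2011 and ES-L 2010 held the highest CPM of their tissue for 17 and 24 of the 60 members, against 15.9 and 13.8% of the 1000 most abundant groupings. In RN the highest values lay in RN-S 2013 for 20 members (33.3%, against 25.8%) and in RN-S 2010 for 18 (30.0%, against 12.5%). Linked genes of the muscle list summed to 254417 to 289281 CPM in ALM-S and 145828 to 206188 CPM in ALM-L. The RN-S pools, labelled as nerve, held 116425 to 212092 CPM of the same genes, which overlaps ALM-L. By its sum, this list goes against the tissue label for RN-S. Most of the sum was muscle actin (Msclact), with a mean of 120251 CPM in RN-S and 136645 in ALM-L. Gene by gene, only Calpn and Trop1 had a higher mean in RN-S than in ALM-L. The light chain MLC1/3_X2, for example, had 1755 CPM in RN-S against 7791 in ALM-L. The linked nerve list was highest in RN-L and next in RN-S. A gene of either list could be linked only where the study had listed it as changed with size. The order of RN-S and RN-L within a list thus restates that choice.

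In any tissue a few transcripts of specialised cells can take a large part of all sequenced RNA, and in muscle these are typically the proteins of the contractile filament and the enzymes that supply it with energy. Aristotle's lantern is the jaw apparatus of the urchin and is moved by large muscles. The radial nerves are the main nerve cords of the body and run beneath the skeleton beside the tube feet, and the esophagus carries food from the lantern to the gut.

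Gene names could be given to 13 of the 60 members, because their counts equalled or closely followed those printed for S. purpuratus (SPU) genes in the study's tables, and 47 had no name. The deposited table does not pair groupings with genes. These 13 genes were listed by the study because they differed between sizes in these samples, so their direction in the size comparisons is not independent evidence. Among them 7 belong to the muscle list: Msclact, muscle actin (rank 1); Tropmy1, tropomyosin (rank 13); Actinin, which cross-links actin filaments (rank 16); Calpn, calponin, an actin-binding protein (rank 17); MLC1/3_X2, a myosin light chain (rank 22); Mrlc, the myosin regulatory light chain (rank 34); and Ckm, a creatine kinase that restores ATP (rank 45). The others described here were Thymbh, a thymosin beta that binds actin monomers (rank 7), FerHc, the ferritin heavy chain that stores iron (rank 8), My18A, named as a myosin (rank 10), Igcam, named for immunoglobulin-type cell adhesion (rank 37), and an uncharacterized gene (rank 60). MLC1/3_X2 was 1 of 3 groupings whose counts summed to those printed, and the gene of rank 60 was 1 of 2.

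The members took the largest part of the counts in ALM. Their share was 65.5, 58.8 and 55.3% in ALM-S and 48.0, 56.6 and 48.4% in ALM-L, in the order 2010, 2011 and 2013 used throughout. In ES the share was 28.1, 23.6 and 32.1% in ES-S and 45.4, 20.3 and 23.7% in ES-L. In RN it was 43.5, 32.5 and 36.7% in RN-S and 16.0, 17.6 and 18.6% in RN-L. Every ALM library was above every ES and RN library, and RN was the only tissue in which Small and Large did not overlap. The counting interval of a share was narrow (for RN-L 2010, 95% Wilson interval 16.00 to 16.05%), so the spread between pools was the larger error. These shares follow from the choice of members and are given without a test.

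**Figure D1:**
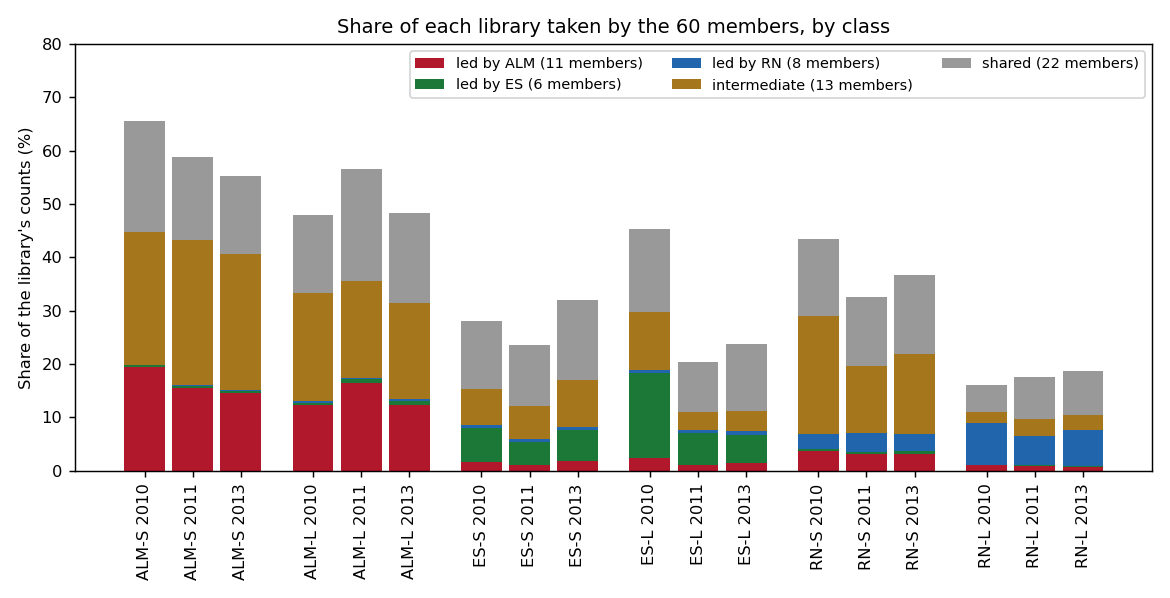
Bars give the percent of each library's counts in the 60 members, stacked by the class of the member, for the 18 libraries (S, Small; L, Large). ALM bars reach 48.0 to 65.5%, RN-L bars 16.0 to 18.6%, and ES-L 2010 (45.4%) stands above the other ES libraries.

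The mean share was 59.9% ± 5.16 (SD, n = 3) in ALM-S and 51.0% ± 4.89 in ALM-L, a difference of -8.88 percentage points with overlapping groups. In ES it was 27.9% ± 4.23 in ES-S and 29.8% ± 13.6 in ES-L, and the difference of 1.87 points turned to -5.90 points without ES-L 2010. In RN it was 37.6% ± 5.57 in RN-S and 17.4% ± 1.298 in RN-L, a difference of -20.2 points. With the 7 muscle-list members taken out of the share and of the total, an alternative added after the data were seen, the RN shares were still apart, at 28.5, 23.7 and 27.3% in RN-S and 15.7, 16.7 and 18.0% in RN-L. Only linked genes of the list could be taken out. Members outside it that were higher in ALM than in RN, such as My18A, stayed in. Whether the remaining difference is free of muscle transcripts was not tested.

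Members were not equally the leading groupings of each library. When the 60 most abundant groupings were chosen within each library, they took 24.1 to 27.9% of the counts in RN-L, 35.3 to 46.2% in RN-S, 24.4 to 50.1% in ES and 51.1 to 69.1% in ALM. Of the 60 members, 20 to 25 were among them in each RN-L library, 42 to 47 in RN-S, 30 to 40 in ES and 36 to 42 in ALM. The RN-L libraries thus shared the fewest of their own leading groupings with the members.

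Muscle actin (Msclact, SPU_006797) was the most abundant grouping of 9 of the 18 libraries, all of ALM and RN-S. It alone made up 19.4, 21.5 and 21.9% of the counts in ALM-S, 16.0, 11.0 and 14.0% in ALM-L, 16.7, 8.58 and 10.8% in RN-S, and 0.181, 0.752 and 0.480% in RN-L. In ES it made up 1.93, 1.46 and 2.08% in ES-S and 0.617, 0.974 and 1.11% in ES-L. Large was below Small without overlap in all 3 tissues on this scale. The leading grouping of the other libraries differed. It was the member ranked 2 in ES-S and RN-L 2011, the member ranked 11 in ES-L 2010 and ES-L 2011, the member ranked 5 in ES-L 2013 and RN-L 2013, and the member ranked 20 in RN-L 2010.

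Members were put into classes by their mean CPM in the 3 tissues, which is a description of the values that chose them. A member was called led by a tissue where that tissue's mean was at least 4 times each of the others (11 led by ALM, 6 by ES and 8 by RN), shared where all 3 means were within 4-fold (22), and intermediate otherwise (13). Of the 60, 25 had a mean above that of the member ranked 60 in only 1 tissue, 20 in 2 tissues and 15 in all 3. The highest mean was in ALM for 25 members, in ES for 21 and in RN for 14.

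**Figure D2:**
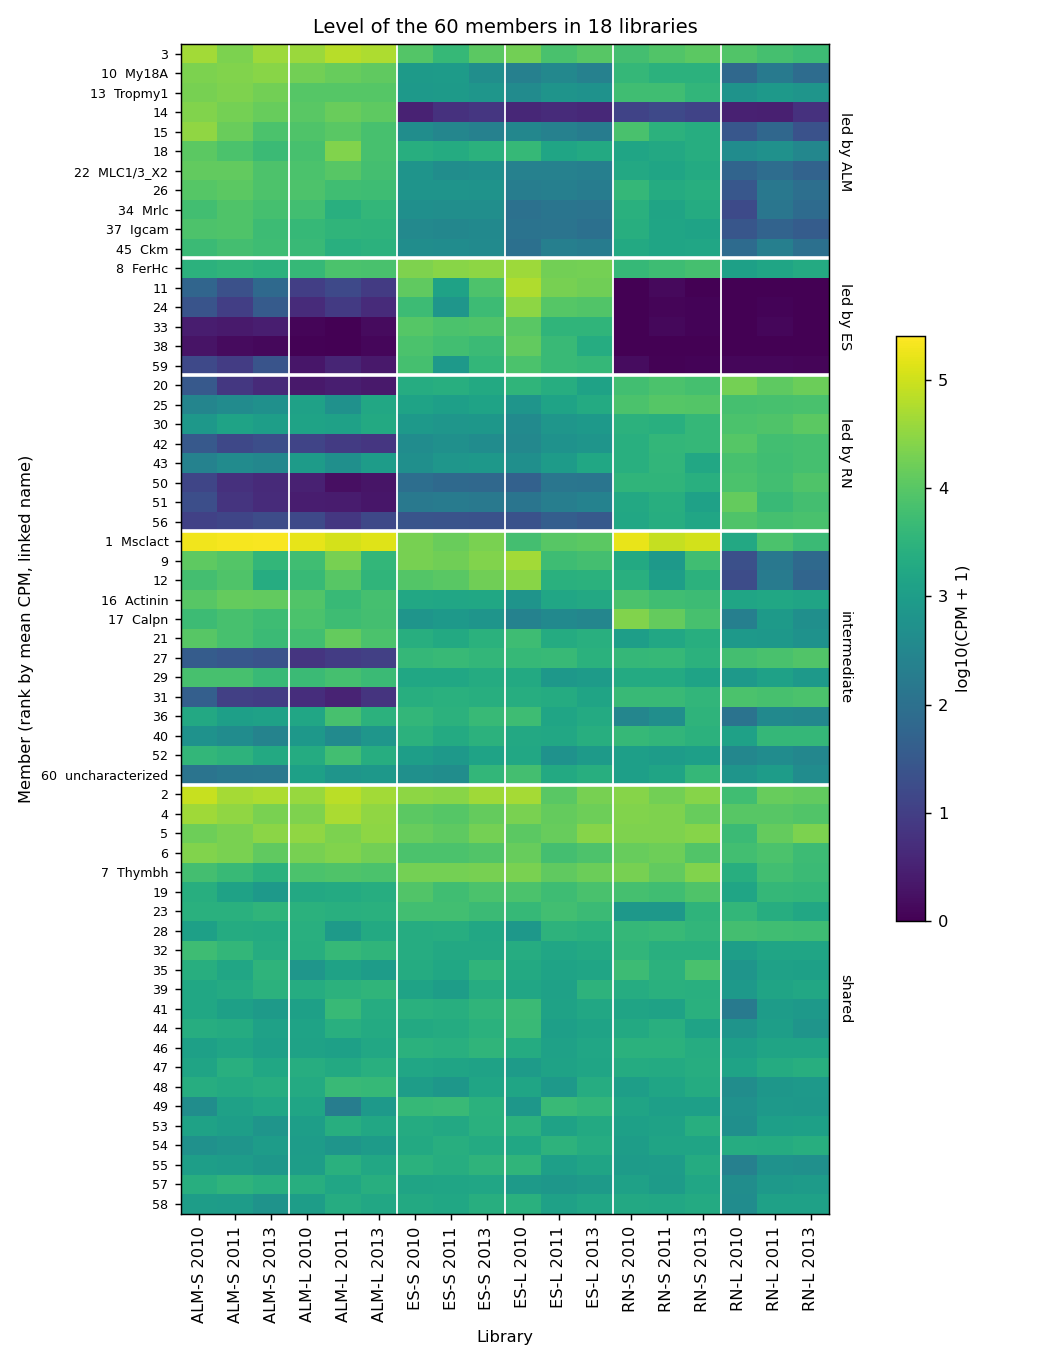
Each row is a member (rank by mean CPM, with the linked name where it is described here) and each column a library, coloured by log10(CPM + 1), with classes and groups parted by white lines. The members ranked 11, 24, 33, 38 and 59 are high in ES and near 0 in RN, and the member ranked 14 is high in ALM alone.

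The 22 shared members held 14.6 to 21.0% of the counts in ALM, 9.22 to 15.6% in ES, 12.9 to 14.9% for RN-S, against 5.05 to 8.07% for RN-L. The member ranked 2 was their highest. Its CPM was 87290, 47594 and 53272 in ALM-S, 37348, 67789 and 44800 in ALM-L, 30210, 27705 and 42634 in ES-S, 46370, 10386 and 19197 in ES-L, 26189, 17964 and 26842 in RN-S, and 5535, 14140 and 12656 in RN-L. It was thus among the leading counts of every tissue, with RN-L low. Sizes overlapped in ALM and ES and did not in RN.

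Of the 11 ALM-led members 6 had a name, and 4 of these, Tropmy1, MLC1/3_X2, Mrlc and Ckm, are in the muscle list. My18A, also led by ALM, had 21840, 23298 and 27988 CPM in ALM-S and 18215, 13684 and 12345 in ALM-L, against 219 to 900 in ES, 4014, 3002 and 2991 in RN-S and 64.4, 158 and 80.7 in RN-L. Msclact, Actinin and Calpn did not reach the 4-fold limit over RN and were intermediate. Calpn had 24010, 13228 and 6664 CPM in RN-S, 5009 to 7265 in ALM, and was at 215, 871 and 495 CPM in RN-L. In bulk samples such as these, fewer cells of a type and less RNA per cell cannot be told apart.

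The member ranked 14 was nearly limited to ALM. Its CPM was 23906, 19003 and 13836 in ALM-S and 10575, 14968 and 11679 in ALM-L, and no library of the other tissues exceeded 14.8 CPM. Its Trinity component was also that of Calpn, the only case in which 2 members came from 1 component. Reads of related copies may be split between such groupings, so the levels of this pair are uncertain.

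The ES-led members held 4.35 to 6.32% of the counts in ES-S and 15.9, 5.91 and 5.38% in ES-L. Of these, FerHc had 23015, 27269 and 30128 CPM in ES-S and 40446, 17382 and 18632 in ES-L, against 2914 to 7308 in ALM and 1161 to 6283 in RN. The remaining 5 had almost no counts in RN. For the member ranked 38 the 6 RN libraries together held 0 of 54643078 counts and its mean in ES was 6277 CPM, which is at least 114331-fold higher when the RN value is set at a floor of 3 counts over the 6 libraries. The members ranked 11, 24, 33 and 59 had 4, 4, 6 and 14 counts in RN in all.

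Of the ES-led members, those ranked 11, 24 and 59 varied widely among ES pools, with the same lowest and highest pool. The member ranked 11 had 11788, 1281 and 7704 CPM in ES-S and 57377, 19695 and 17110 in ES-L, and was the leading grouping of ES-L 2010. The member ranked 24 had 5132, 692 and 5003 CPM in ES-S and 30851, 9602 and 8502 in ES-L. Both were lowest in ES-S 2011 and highest in ES-L 2010, and so was the member ranked 59, with 776 and 7284 CPM in these pools. All ES-L values of the members ranked 11 and 24 were above all their ES-S values, but neither passed the test (edgeR's quasi-likelihood test, Benjamini-Hochberg adjusted p = 0.602 for rank 11 and 0.600 for rank 24).

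The RN-led members had no linked name. They held 2.84, 3.51 and 3.07% of the counts in RN-S and 7.75, 5.46 and 6.76% in RN-L, and were the only class whose share was higher in RN-L than in RN-S, with no overlap. The member ranked 56 was the most restricted to nerve. It had 1730, 2367 and 1586 CPM in RN-S and 8076, 6523 and 7108 in RN-L, and no more than 39.7 CPM in any library of the other tissues. Its log2 fold change was 7.08 ± 0.25 (SE) for RN against ES, a description of the level that brought it into the 60. The member ranked 20 was also high in ES (1300 to 3375 CPM) and all but absent from ALM (1.32 to 31.3 CPM).

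Between tissues, a large part of the members was called in each comparison. A member that entered the 60 through 1 tissue had to differ, so these counts are a description. To be called, a grouping needed an adjusted p under 0.05 (edgeR's quasi-likelihood test, Benjamini-Hochberg) and a log2 fold change over 1 either way. For ALM against ES 43 of 60 members were called, 27 higher and 16 lower in ALM, where 40.2% of all 39561 groupings tested were called (14.9% higher, 25.3% lower). For RN against ALM 49 were called, 11 higher and 38 lower in RN, against 37.3% of all tested (20.8% higher, 16.5% lower). For RN against ES 30 were called, 13 higher and 17 lower in RN, against 37.8% of all tested (16.3% higher, 21.6% lower). The median log2 fold change of the members was 0.28, -1.79 and -0.12 in these comparisons, and that of all groupings -0.16, 0.10 and -0.03.

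With total counts alone in place of TMM normalization, which moved the median of all groupings to -0.86 for ALM against ES and 0.83 for RN against ALM, the splits were 21 higher and 19 lower, and 15 higher and 30 lower. With the OtA08 series alone, RN is the single library RN-S 2013, which is assumed to vary like the other groups. RN was therefore set against the Small libraries of ALM and ES only, so size and series changed together. For RN against ES the median log2 fold change of the members was then 0.40. For ALM against ES, with both sizes, 43 members were called. The direction of RN against ES also went with size. With the Small libraries alone 20 were higher and 10 lower in RN (median 0.53), and with the Large libraries alone 10 were higher and 19 lower (median -1.14).

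Within tissues, members were set apart by size in RN and were not called in ALM or ES. In RN, 40 of the 55 members tested were called, 37 lower and 3 higher in Large, where 21.7% of all 29047 groupings tested were called (10.3% lower and 11.4% higher). The median log2 fold change of the members was -1.60, against -0.04 for all groupings tested. Without RN-L 2013 the number called was 26, and with total counts alone, which moved the median of all groupings to 0.38, 28 were lower and 7 higher. The other 5 members are the ES-led ones with almost no counts in RN. The mean over 18 libraries that chose the members did not use size, but a grouping that reached the 60 through RN-S had to be high there.

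As a choice made without RN, the 60 groupings with the highest mean CPM in the 12 ALM and ES libraries were also looked up in the RN fit. This alternative was added after the data were seen. Of these, 50 were members, 55 were tested and 45 were called, all of them lower in RN-L, where 10.3% of all groupings tested were. A choice by ALM and ES level works against RN-led groupings, the only class with members called higher in RN-L. The direction is therefore not free of the choice. The median log2 fold change was -2.02.

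**Figure D3:**
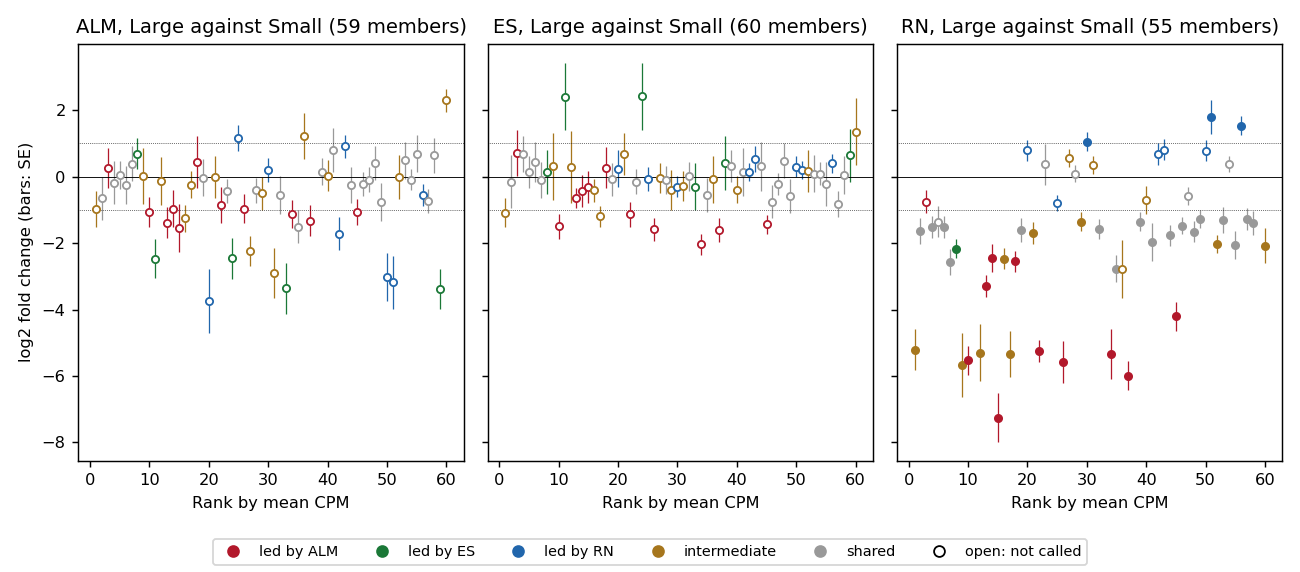
Points are the log2 fold changes of Large against Small for each member tested, by rank, with SE bars, in ALM (59), ES (60) and RN (55). Filled points were called, dotted lines mark a log2 fold change of 1 either way, and in RN 37 filled points lie below 0 and 3 above, with none filled in ALM or ES.

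The RN calls are given by class as a description only, since the classes rest on tissue means that include RN-L. Of the 11 ALM-led members 10 were lower in Large, with a class median of -5.24 on the log2 scale. Of the 22 shared members 17 were lower (median -1.49), of the 13 intermediate members 9 (median -2.08), and of the 8 RN-led members 3 were higher (median 0.81). FerHc, the only ES-led member tested, was lower.

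All 7 muscle-list members fell in RN-L. Msclact had 166801, 85829 and 108123 CPM in RN-S and 1813, 7519 and 4797 in RN-L. The lowest RN-S pool was above 10 times the highest RN-L pool. Its log2 fold change was -5.20 ± 0.61 (SE), with an adjusted p of 0.00246 in edgeR's quasi-likelihood test. Calpn, with the values given above, had a log2 fold change of -5.34 ± 0.70 (adjusted p = 0.00339).

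Of the other muscle-list members, the light chain MLC1/3_X2 had 1781, 1517 and 1966 CPM in RN-S and 53.6, 84.0 and 52.7 in RN-L. Its log2 fold change was -5.24 ± 0.34 (adjusted p = 0.000956). Mrlc had 2688, 1406 and 2074 CPM in RN-S and 15.0, 133 and 75.4 in RN-L, with RN-L 2010 the lowest pool as for Msclact and Calpn. The changes of Mrlc, Ckm, Tropmy1 and Actinin ran from -5.33 to -2.46. Actinin, with 7601, 5656 and 5060 CPM in RN-S and 1489, 1618 and 1433 in RN-L, changed least.

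The muscle list holds 12 genes, of which 11 were linked, and the 4 that are not members fell as well. These are Trop1, TropT, ProjL and Nebnph, and their log2 fold changes ran from -3.74 to -2.80. All 11 were called lower in RN-L, with a median of -3.74 beside -0.04 for all groupings tested. Since a gene could be linked only where the study had listed it as changed with size in these samples, the direction of the 11, members or not, restates that choice.

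**Figure D4:**
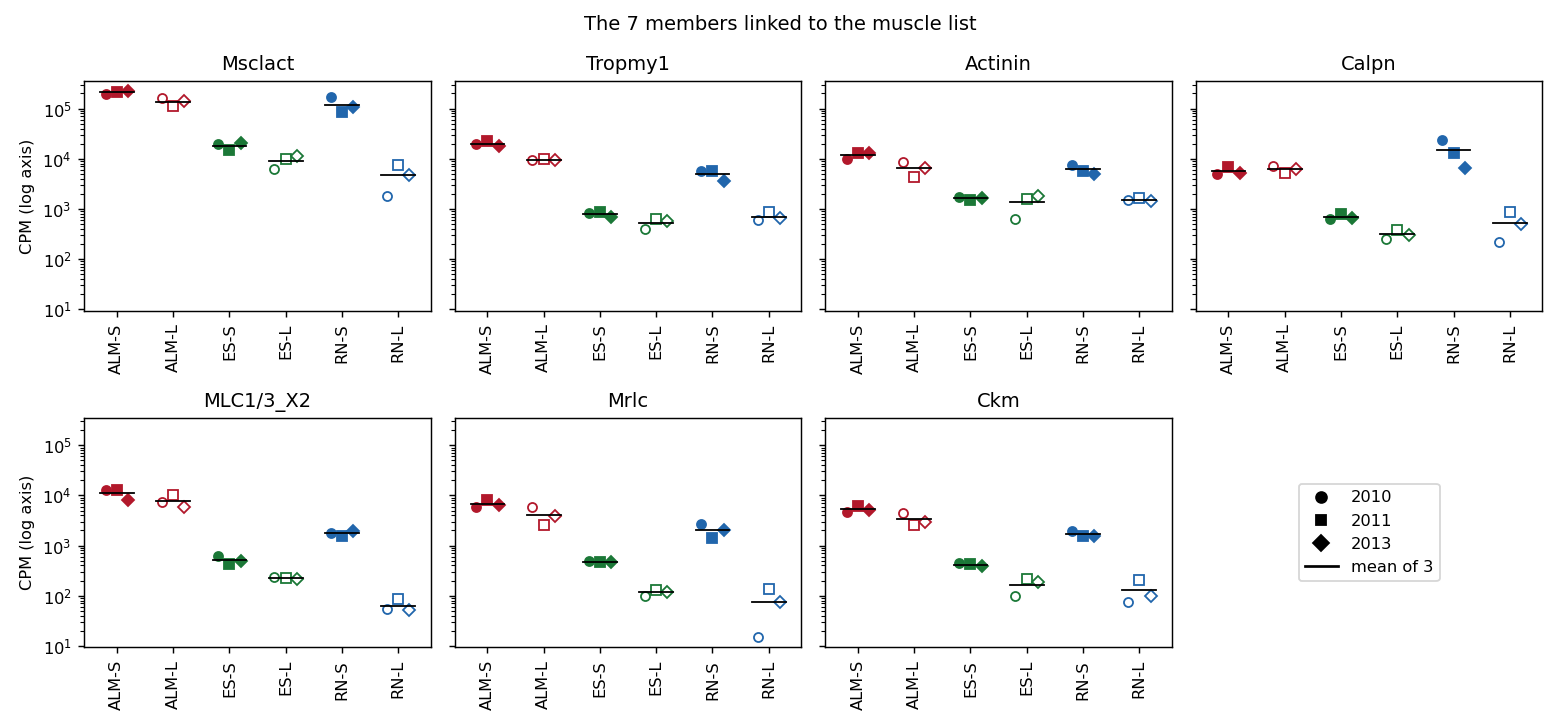
CPM on a log axis of the 7 members linked to the muscle list, per library (filled, Small; open, Large; symbols, sampling year; bar, mean of 3). In RN every RN-L library lies below every RN-S library for all 7, and for Msclact the values are 1813 to 7519 against 85829 to 166801 CPM.

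Other marker lists moved with this result, and their genes too were linked through the study's tables of changed genes, so that their counts of calls follow from the choice. In RN-S the linked muscle list had a summed level of 116425 to 212092 CPM, against 4445 to 11605 CPM for RN-L. For the nerve list, with 8 of 9 genes linked, the sum was 1150 to 1654 CPM in the RN-S pools, against 7889 to 9576 CPM for RN-L, and all 8 were called higher in RN-L. For the 11 linked genes of skeleton-forming cells it was 148 to 324 CPM in the RN-S pools, against 12.7 to 43.5 CPM for RN-L, where up to 4 of them were at 0 in a library. Of the 13 linked ribosomal protein genes of the list of 14, with sums of 3838 to 12446 CPM (RN-S) against 837 to 2631 CPM (RN-L), 11 were called lower in RN-L, with a median of -2.35. This list was taken from the study's table of RN genes chosen by size on these samples. Their part in the members' difference, like that of the library series, was not tested.

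Members with no place in the muscle list fell in RN-L too, but My18A, Igcam and the member ranked 15 were all led by ALM. My18A is also named as a myosin. My18A and Igcam were linked through the study's tables of genes changed with size, so their direction restates that choice. Whether these falls were separate from that of the muscle list was not tested. My18A had a log2 fold change of -5.53 ± 0.44 (adjusted p = 0.00125, edgeR), on the values given above. Igcam had 2404, 1518 and 1354 CPM in RN-S and 27.4, 52.4 and 37.1 in RN-L, a log2 fold change of -5.99 ± 0.44 (adjusted p = 0.00125). The largest fall was that of the member ranked 15 (TRINITY_DN127331_c0_g1), from 6929, 3013 and 2266 CPM in RN-S to 28.9, 63.9 and 22.2 in RN-L, a log2 fold change of -7.25 ± 0.73 (adjusted p = 0.00171). For each of these members the lowest RN-S pool was above 10 times the highest RN-L pool.

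Thymbh and FerHc fell less. Thymbh had 19187, 12890 and 23686 CPM in RN-S and 2450, 5841 and 4863 in RN-L, a log2 fold change of -2.57 ± 0.40 (adjusted p = 0.00526, edgeR). FerHc had 4080, 5293 and 6283 CPM in RN-S and 1161, 1494 and 2045 in RN-L, a change of -2.17 ± 0.29 (adjusted p = 0.00349). In both the RN-L pools were all below the RN-S pools. The uncharacterized gene of rank 60 had 1093, 1407 and 3929 CPM in RN-S, highest in RN-S 2013, and 639, 965 and 416 in RN-L, and its call (-2.08 ± 0.53, adjusted p = 0.0263) was lost with sampling year as a block (-1.89), without RN-S 2013 (-1.37) and without any 1 RN-L pool (-2.32 to -1.75).

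Of the leading shared members, the one ranked 2 (TRINITY_DN1_c0_g1) had a log2 fold change in RN of -1.63 ± 0.39 (adjusted p = 0.0217, edgeR), which was not called with sampling year as a block (-1.65) or with total counts alone (-1.13), and without RN-S 2010 (-1.47), RN-S 2013 (-1.60) or RN-L 2013 (-1.67). The members ranked 4 and 6 were called at -1.53 and -1.50, and neither was called without RN-S 2010 or without RN-L 2013. The member ranked 3 had 6118, 8720 and 10900 CPM in RN-S and 8557, 6374 and 4946 in RN-L, and was not called (-0.75 ± 0.35, adjusted p = 0.155). It was the only ALM-led member with overlapping sizes in RN. The member ranked 5 was not called either (-1.35 ± 0.46, adjusted p = 0.0675).

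The members that were higher in RN-L were ranked 30, 51 and 56, all RN-led, and only the one ranked 56 was still called with sampling year as a block, without any 1 RN-S pool or without RN-L 2013. The member ranked 30 had 2936, 2610 and 4005 CPM in RN-S and 7501, 8330 and 11165 in RN-L, a log2 fold change of 1.06 ± 0.30 (adjusted p = 0.0372, edgeR). The member ranked 51 (TRINITY_DN3822_c0_g1) had 1815, 2394 and 1236 CPM in RN-S and 13471, 4486 and 6149 in RN-L, a log2 fold change of 1.80 ± 0.51 (adjusted p = 0.0389, edgeR). RN-L 2010 was its highest pool by far, and the call was lost with sampling year as a block (1.62) and without RN-L 2013 (2.03) or any 1 RN-S pool (1.54 to 1.90). The member ranked 56 (TRINITY_DN155_c0_g1) had the values given above, a log2 fold change of 1.54 ± 0.29 (adjusted p = 0.00934). Of the 5 other RN-led members, which were not called, 4 had values from 0.68 to 0.82 and the one ranked 25 had -0.79.

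In some members 1 pool stood far above the others of its group. The members ranked 9 and 12 had 45204 and 28142 CPM in ES-L 2010, at 7.23 and 9.94 times the next ES-L pool. In RN-S they had 1921, 791 and 5635, and 2547, 1083 and 2997 CPM, with RN-S 2013 the highest, and in RN-L 19.5, 147 and 68.1, and 16.7, 175 and 55.4 CPM. Both were called lower in RN-L, at -5.66 ± 0.96 (adjusted p = 0.00689, edgeR) and -5.29 ± 0.86 (adjusted p = 0.00616). The member ranked 36 had 303, 460 and 3248 CPM in RN-S, so that 1 pool set its mean, and was not called (adjusted p = 0.0536).

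In ALM 0 of the 59 members tested were called for Large against Small by edgeR's quasi-likelihood test, where 0.00408% of all groupings were called. At an unadjusted p under 0.05 the number was 20 of 59, beside 6.88% of all tested. These 20 included the members ranked 11, 20, 24, 27, 31, 33, 42, 50, 51 and 59, all lower in Large. The highest value among those named was 68.1 CPM in any ALM library, so their changes rest on low levels. DESeq2 called 10, 1 higher and 9 lower, beside 0.341% of all tested (0.178% higher, 0.163% lower). All 7 muscle-list members had a negative log2 fold change, from -1.39 (Tropmy1) to -0.24 (Calpn), with adjusted p from 0.449 to 0.999, and that of Calpn was 0.12 with total counts alone, which moved the median of all groupings to 0.35.

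Tropmy1 had 19284, 22328 and 17899 CPM in ALM-S and 9563, 9651 and 9511 in ALM-L. Msclact had 194091, 214941 and 219285 CPM in ALM-S and 159537, 110192 and 140205 in ALM-L. Sizes did not overlap for either in CPM, yet neither passed the test. Over the same libraries the list of skeleton-forming cells summed to 239 to 255 CPM in ALM-S and 34.6 to 48.6 in ALM-L, and its part in these values was not tested. The gene of rank 60 went the other way, with 117, 147 and 149 CPM in ALM-S and 1190, 668 and 754 in ALM-L (2.304 ± 0.35, adjusted p = 0.0729, edgeR).

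Counted by CPM alone, 17 of the 59 members had all ALM-L pools below all ALM-S pools and 5 had them above, where 2.09% of all groupings tested were below and 14.4% above. The 17 included the members ranked 11, 20, 24, 27, 31, 33, 42, 50, 51 and 59, whose highest value in any ALM library was 68.1 CPM. This count thus rests in part on members with low levels in ALM. For RN the counts were 39 below and 11 above of 55, beside 12.5 and 29.9% of all groupings. For ES they were 12 below and 3 above of 60, beside 6.57 and 6.21%. These counts are on the CPM scale, in which a higher share of 1 member lowers the CPM of all others in that library.

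In ES 0 of 60 members were called, where 0.00331% of all 30184 groupings tested were. At an unadjusted p under 0.05 the number was 10, beside 8.10% of all tested, and DESeq2 called 6, all lower in Large, beside 0.358% of all tested (0.161% lower). Without the pool ES-L 2010 edgeR called 11, all lower in ES-L, and 892 of all 33801 groupings tested (512 higher, 380 lower), so calls then appeared over the whole table. The median log2 fold change of the members was -0.06, and that of all groupings 0.06.

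The 7 muscle-list members were again all lower in Large in ES, from -2.04 (Mrlc) to -0.41 (Actinin), with adjusted p from 0.174 to 0.873 in edgeR's test. Mrlc had 491, 471 and 465 CPM in ES-S and 101, 127 and 121 in ES-L. Ckm had 442, 420 and 390 CPM in ES-S and 96.5, 214 and 185 in ES-L. The sizes were well apart in both, and without ES-L 2010 both were called, at -2.26 and -1.39. DESeq2 called Mrlc, Ckm and Calpn lower on all 6 libraries.

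The size effects were also set against each other between tissues by the interaction term in a fit to all 18 libraries. The size effect differed between RN and ALM for 21 of 60 members at an adjusted p under 0.05, where 3.40% of all groupings tested passed. It was lower in RN for 14 (1.91% of all groupings) and higher for 7 (1.49%), and the number was 13 without ALM-L 2013 and 13 without RN-S 2010. Between RN and ES it differed for 13 members, all lower in RN, where 4.15% of all groupings passed and 2.42% were lower. Between ES and ALM 0 members passed in edgeR, beside 0.0303% of all groupings, with 12 at an unadjusted p under 0.05 (4.76% of all groupings). Apart from the member ranked 25, the highest value of these 12 in any ALM library was 68.1 CPM. Their ALM side thus rests on low levels. DESeq2 passed 8, of which 7 were higher and 1 lower in ES, beside 0.116% of all groupings (0.0756% higher, 0.0402% lower).

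For Msclact the log2 fold change in RN was lower than that in ALM by -4.14 ± 0.65 (adjusted p = 0.00228) and than that in ES by -3.94 ± 0.64 (adjusted p = 0.00261). Actinin and Tropmy1 differed less between RN and ALM, at -1.14 ± 0.43 (adjusted p = 0.157) and -1.83 ± 0.48 (adjusted p = 0.0416). The 7 members with a higher size effect in RN than in ALM were 5 of the RN-led and 2 of the intermediate class. None of the 7 exceeded 41.2 CPM in any ALM library, so their ALM side rests on low levels. None was called by size in ALM, and only those ranked 51 and 56 were called in RN. The 7 became 4 without ALM-S 2010, ALM-L 2013, RN-S 2010 or RN-S 2011. For those ranked 20 and 31 the ALM-S 2010 value was 4.82 and 4.29 times the next of its group. The member ranked 51, for example, went from 18.8, 5.37 and 3.51 CPM in ALM-S to 1.68, 1.52 and 1.14 in ALM-L while it rose in RN, a difference of 5.05 ± 0.91 (adjusted p = 0.00584).

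The spread between the pools of a group is given as the coefficient of variation. Among groupings with a group mean of at least 100 CPM, its median over the members was 29.0% in ALM-S, 29.6% in ALM-L, 16.7% in ES-S, 43.5% in ES-L, 22.9% in RN-S and 27.4% in RN-L. For all groupings at that level it was 28.7, 34.6, 17.7, 41.6, 21.4 and 22.8%. ES-L had the widest and ES-S the narrowest spread on both counts.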

How the data were processed

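Per the authors' methods, reads were trimmed with Trimmomatic, assembled with Trinity, aligned with Bowtie2 and counted with RSEM, and the deposited table holds the authors' estimated counts per Trinity grouping as whole numbers, without normalization. RNA was amplified as cDNA before library construction, so intervals cover counting error only. Total counts ran from 7383210 to 11547218 per library. Groups and years come from the sample titles, since another label gave 2010 for all RN libraries.

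CPM is a count divided by the library total, times 1000000. Tests were made with edgeR 4.0.16 (TMM, filterByExpr defaults, quasi-likelihood F-test) on all groupings, with Benjamini-Hochberg adjustment, for the 6 libraries of each tissue and for all 18 with 6 groups. The code was also run on simulated counts in which randomly chosen groupings were changed in both directions. That setting cannot show how the tests behave where many abundant groupings fall together, as in RN. DESeq2 1.42.0, other normalizations, no filter, sampling year as a block and leaving out libraries were alternatives. The SE of a log2 fold change is its size divided by the root of F.

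The sampling year is shared by Small and Large pools of a tissue. The correlation of same-year deviations from the group means was -0.55, -0.22 and 0.04 in ALM, 0.02, 0.31 and -0.16 in ES and -0.05, -0.10 and 0.04 in RN for 2010, 2011 and 2013.

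Names came from equal or nearly equal counts in the study's tables, of which only the names were used. With the printed counts shuffled among libraries, 0, 0 and 1 genes were linked in ALM, ES and RN, against 111, 76 and 693. Members named are the 10 highest, the 3 highest of each tissue, the 2 called members with the largest rise and the 2 with the largest fall in Large, the 2 with the largest difference each way between tissues, the linked members, and at most 4 in which 1 library was over 4 times the others of its group. Others given by rank were chosen after their values were seen. The members and lists were chosen with earlier results of these data known. The authors' own fold changes and p-values were not used, but their lists of changed genes decided which groupings could be named. The results of 1 linked member are not reported here by name.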

Additional observations from a re-analysis of the deposited data

Results flagged for a closer look

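The size effect (Large against Small) was not the same in all tissues by the interaction test, with 21 members past the threshold for RN against ALM, and 13 for RN against ES. Among the 10 most abundant members, the log2 fold change in RN was below that in ALM by -4.14 for Msclact, -4.40 for My18A, -2.88 for Thymbh and -2.80 for FerHc. It was below that in ES by -3.94 for Msclact, -3.87 for My18A and -5.82 for the member ranked 9, which was highest in the pools ES-L 2010 and RN-S 2013. Thymbh and FerHc rose, by values that did not pass the test, in ALM-L and fell in RN-L. In RN size and library series cannot be told apart.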

How the results depend on the processing

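For Large against Small, 0 members were called in ALM by edgeR, 10 by DESeq2, 11 with no filter on low counts and 2 in the fit to all 18 libraries. In ES the numbers were 0 by edgeR, 6 by DESeq2, 7 with no filter and 0 to 11 with 1 library left out, with 11 without ES-L 2010. In RN 40 were called, and 26 to 38 with 1 library left out, with 26 without RN-L 2013. For RN against ALM 49 became 20 with the OtA08 series alone. For the size effect in RN against ALM, 21 became 13 to 26 with 1 library left out, with 13 without ALM-L 2013 or RN-S 2010, and in ES against ALM 0 became 8 with DESeq2. The causes were not tested.

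With sampling year as a replicate block, RN calls were 31 of the members (3833 of all groupings, against 6302 without the block). ALM and ES stayed at 0, the tissue comparisons gave 43, 49 and 29, and the size effects between tissues 19, 11 and 0.

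With the highest member taken out, the mean share was 49.2% in ALM-S, 43.1% in ALM-L and 29.1% in RN-S, and with the muscle-list members taken out 44.9, 40.5 and 26.5%. In RN-L it was 15.1% for the 60 highest by median CPM and 26.2% for the 60 highest within each library. The RN difference became -13.8 points for the latter choice, -12.1 points without the highest member and -9.74 points without the muscle-list members. The ES difference reversed to -2.30 points for the median choice, and with 1 library left out ran from -5.90 (without ES-L 2010) to 6.62, with -0.29 without ES-S 2011. Calpn in ALM reversed to 0.12 with total counts alone.

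Of the 60 members, 46 were kept by the median, 43 by the mean of log2(CPM + 1), 55 after TMM normalization and 57 to 60 with 1 library left out. Of the alternatives for named members called by size in RN, 261 kept the call and 25 lost it. Each group holds 3 pools, and the depth does not separate library series from size in RN.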
